A study of Mus musculus with 18 samples.

Results

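The comparison described here asked whether alginate oligosaccharide (AOS) had the same effect on the liver transcriptome of mice on a regular diet as on mice on a high-fat diet (HFD). The difference between the effects was taken per gene as (HFD+AOS minus HFD) minus (AOS minus Con) on the log2(RPKM + 1) scale, where RPKM is the number of reads per kilobase of gene scaled to the mapped reads of the library, and it is called the interaction. It used 12 of the 18 livers sequenced, 3 in each of the groups Con, AOS, HFD and HFD+AOS. All were from ICR mice of 10 weeks by their labels, and AOS was given at 10 mg/kg. The labels of Con and AOS name no diet, and the study kept its control mice, which were male, on a regular diet. The other 6 livers were from mice on the HFD that received gut microbiota of control donors (Con-FMT) or of AOS-dosed donors (A10-FMT), 3 in each group. For how long AOS was given to the AOS and HFD+AOS mice, and at which hour the livers were taken, is not given in the sources used here. A gene was tested if its RPKM reached 1 in at least 3 of the 18 livers, and 53 of 10507 genes tested passed the interaction at an adjusted p under 0.05 (limma, Benjamini-Hochberg), which is 0.504% of them.

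AOS is a mixture of short chains cut from alginate, the polysaccharide of brown seaweeds, and is studied as a dietary agent that changes the gut microbiota. Many of the genes with the smallest p of the interaction belong to the circadian clock of the liver. In that clock BMAL1 (gene Arntl) pairs with CLOCK or NPAS2 and activates genes through E-boxes, among them the Per genes, the D-box activators Dbp and Tef, and the Rev-erb receptors (Nr1d1 and Nr1d2). The Rev-erb receptors in turn repress Arntl, Npas2 and Nfil3 through ROR elements, so that genes of both sets peak at opposite times of day.

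Promoter sequence is shown for 5 clock genes of the interaction, chosen with their values known, because the letters of the clock motifs are found in them. The sequences are those of RefSeq for GRCm38.p6, the 250 bases before the start used for the gene, read 5′ to 3′ on its own strand. For Arntl, 30 bases around a match after the start are given instead. The window of Tef lies inside the gene as placed by GENCODE M21 (81802421 to 81826863). The start used for Tef is therefore not the first base of the gene there. The same holds for Ciart (95878503 to 95882251), Nfil3 (52967209 to 52981073) and Arntl (113207465 to 113314126). The motif of Nfil3 lies inside the gene as placed there, while those of Ciart lie before it. Capitals mark the motif, which is the E-box CACGTG in Ciart and Tef, the D-box TTANGTAA in Per3, and the ROR element TAGGTCA, or its reverse complement, in Nfil3 and Arntl.
Ciart (chr3:95882229-95882478, minus strand): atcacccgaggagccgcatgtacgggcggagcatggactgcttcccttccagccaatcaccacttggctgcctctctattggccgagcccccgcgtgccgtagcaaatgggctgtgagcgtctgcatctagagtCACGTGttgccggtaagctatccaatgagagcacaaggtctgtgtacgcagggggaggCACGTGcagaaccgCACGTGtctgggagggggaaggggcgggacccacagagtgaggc
Tef (chr15:81811164-81811413, plus strand): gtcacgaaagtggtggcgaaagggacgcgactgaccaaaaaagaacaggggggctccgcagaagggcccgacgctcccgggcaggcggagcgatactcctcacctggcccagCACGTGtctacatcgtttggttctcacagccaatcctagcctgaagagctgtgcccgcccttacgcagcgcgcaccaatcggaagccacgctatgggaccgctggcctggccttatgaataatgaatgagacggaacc
Per3 (chr4:151044666-151044915, minus strand): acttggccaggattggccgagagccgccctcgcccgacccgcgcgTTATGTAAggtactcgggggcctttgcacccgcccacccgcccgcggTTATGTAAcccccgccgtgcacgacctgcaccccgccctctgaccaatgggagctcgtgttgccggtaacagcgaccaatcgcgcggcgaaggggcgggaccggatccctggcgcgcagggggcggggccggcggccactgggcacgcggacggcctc
Nfil3 (chr13:52981040-52981289, minus strand): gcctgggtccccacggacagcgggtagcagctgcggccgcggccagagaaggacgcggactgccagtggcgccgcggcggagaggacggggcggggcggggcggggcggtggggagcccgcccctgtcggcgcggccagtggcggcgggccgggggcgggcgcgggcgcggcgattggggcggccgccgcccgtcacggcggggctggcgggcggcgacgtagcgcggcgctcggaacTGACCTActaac
Arntl (chr7:113207529-113207558, plus strand): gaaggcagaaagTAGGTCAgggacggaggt

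The 3 E-boxes of Ciart began 116, 58 and 44 bases before the start used for it. That of Tef began 138 bases before the start used, which lies inside the gene. The D-boxes of Per3 began 205 and 158 bases before its start. The ROR element began 12 bases before the start used for Nfil3, inside the gene as placed by GENCODE M21. In Arntl it began 30 bases after the start used, which also lies inside the gene. Of the 53 genes, 37 were matched to promoter windows of 300 bases (250 before to 50 after the start), and motifs were searched on both strands. The E-box was in 3 of the 37 (Ciart, Tef and Mical2), against 11.98% of 8374 tested genes with a promoter. The D-box was in 2 of the 37 (Per3 and Slc45a3), against 1.98%. The ROR element was in 4 of the 37 (Arntl, Nfil3, Leo1 and Slc45a3), against 2.53%. All 4 were genes with a negative interaction, as were 38 of the 53. Also searched were the E-prime box CACGTT, in 2 of the 37 against 6.42%, and the nuclear receptor half-site AGGTCA, in 8 of the 37 against 15.83%. A match is a description of the letters and not of binding.

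Before the groups were compared, the livers of each group were compared with each other. The third Con liver lay between the other Con livers for 98.0% of 148 genes that were at least 1 log2 unit apart in those, and their best weighted mean differed from it by 0.0665 log2 units in the median gene. The third AOS liver lay between the other AOS livers for 96.5% of 142 genes, with a difference of 0.0830. In the other 4 groups, the share was 58.1% to 76.8% and the difference 0.341 to 0.590. Whether these libraries come from animals of their own was not tested. If they do not, n is below 3 in Con and AOS, and the standard errors and p values of the interaction and of the regular diet may be too small. Because all groups share an estimate of the spread, those of the HFD and of A10-FMT against Con-FMT may be too small as well. Counts are therefore also given without the third Con and AOS livers. The RPKM of a liver summed to 715841 to 806937 over the 12 livers, with 14707 to 14872 genes above 0. Albumin (Alb) was at 24367 to 41363 RPKM, while the adipocyte genes Lep and Plin1 and the muscle gene Ckm were listed at 0 in every liver of the 12. The summed RPKM of the erythroid markers was 1257 to 1974 in Con, 2113 to 2744 in AOS, 824 to 2699 in HFD and 873 to 1266 in HFD+AOS, and its part in the results was not tested. In bulk liver, fewer cells of a type and less RNA per cell cannot be told apart.

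Of the 53 genes, 15 had a positive interaction (0.143% of genes tested), meaning a higher response to AOS on the HFD than on the regular diet, and 38 a negative one (0.362%). The median interaction was -0.08 over all genes tested. When the median of each library was set equal, 65 genes passed, 31 positive and 34 negative, of which 45 were shared with the 53. Without the third Con and AOS livers 15 genes passed, all of them among the 53, and all 53 kept their direction with an unadjusted p under 0.05. The livers that remained had also chosen the 53, so that the kept direction is a description and no separate support. The count was 186 without HFD replicate 1 and 86 without Con replicate 2, and it was 29 to 34 without Con replicate 3, AOS replicate 3, HFD+AOS replicate 1, AOS replicate 2 or HFD replicate 3. None of the 53 passed the filter on low values through a single group. At the edge of the threshold, Hamp2 passed with an adjusted p of 0.0468 in limma, and Net1 did not, with 0.0516.

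AOS had an effect of its own on more genes with the HFD than with the regular diet at the same threshold. Between HFD+AOS and HFD 919 genes passed (8.75%), 438 higher (4.17%) and 481 lower (4.58%) with AOS. Between AOS and Con 14 genes passed (0.133%), 10 higher (0.0952%) and 4 lower (0.0381%), while 1633 (15.5%) had an unadjusted p under 0.05. Without the third Con and AOS livers 0 passed on the regular diet (920 at an unadjusted p under 0.05 in limma) and 496 on the HFD. The count on the HFD was also lower without HFD replicate 3 (320), HFD+AOS replicate 1 (322), HFD replicate 2 (440) or HFD+AOS replicate 2 (538). On the regular diet it was 0 without AOS replicate 3, Con replicate 1 or Con replicate 3, 5 without AOS replicate 1, 9 without HFD+AOS replicate 1 and 132 without Con replicate 2. A gene that passed on the HFD alone was not thereby shown to differ, since only 49 of the 919 (5.33%) also passed the interaction. The 53 genes were divided by the unadjusted p of the effect on each diet in the same fit. AOS moved 36 of them on the HFD only, 14 in opposite directions, 2 on the regular diet only and 1 in the same direction on both diets. With the adjusted p in its place, 49 were moved on the HFD only, 2 on the regular diet only, 0 in opposite directions, and 2 on neither diet.

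**Figure D1:**
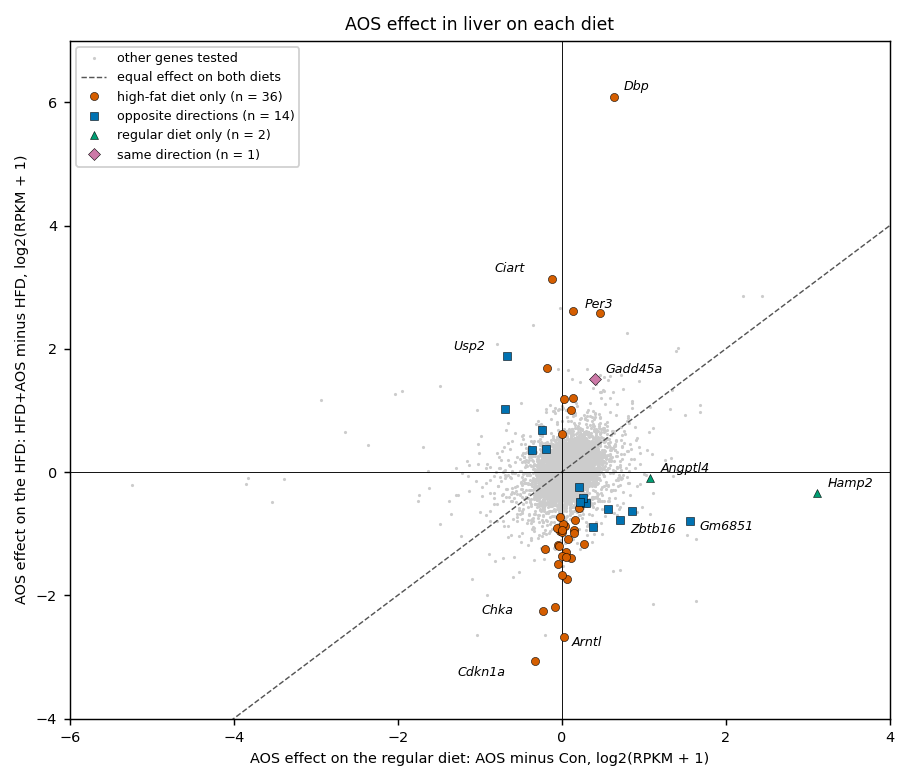
Each point is a gene, with its AOS effect on the regular diet (AOS minus Con) on the x axis and on the HFD (HFD+AOS minus HFD) on the y axis, both as differences of mean log2(RPKM + 1) over 3 livers a group. Grey points are all genes tested, coloured points are the 53 genes that passed the interaction, and the dashed line marks equal effects. The 36 genes moved on the HFD only lie along the vertical axis from -3.06 to 6.09, the 14 moved in opposite directions lie in the upper left and lower right, and Angptl4 and Hamp2 lie to the right near a HFD effect of 0.

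Of the 8 clock genes of the BMAL1 phase, 5 fell with AOS on the HFD, against 4.58% of all genes tested, while on the regular diet 0 passed and 1 was lower at an unadjusted p under 0.05 (limma). Arntl was at 12.1, 14.6 and 13.2 RPKM in HFD and at 1.18, 1.23 and 1.32 RPKM in HFD+AOS, but at 10.1, 12.9 and 12.2 RPKM in Con and 11.2, 12.7 and 11.8 RPKM in AOS. The HFD+AOS livers were far below the livers of the other 3 groups, which overlapped each other. The mean was 10.7-fold lower in HFD+AOS than in HFD, and 1.02-fold that of Con in AOS. The interaction of Arntl was -2.70 ± 0.31 (SE; limma adjusted p = 0.000698).

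Npas2, the partner of BMAL1 that can replace CLOCK, was at 2.64, 2.65 and 2.95 RPKM in HFD and at 0.11, 0.06 and 0.19 RPKM in HFD+AOS. It was at 2.90, 3.48 and 2.95 RPKM in Con and at 2.93, 3.61 and 3.40 RPKM in AOS. Only the HFD+AOS livers stood apart, with an interaction of -1.81 ± 0.21 (SE; limma adjusted p = 0.000698). Nfil3, a repressor that competes with DBP at D-boxes, was at 26.8, 28.9 and 29.8 RPKM in HFD and 8.85, 9.25 and 6.76 RPKM in HFD+AOS. On the regular diet its values overlapped, with 23.7, 21.2 and 23.1 RPKM in Con and 20.2, 26.3 and 22.1 RPKM in AOS. The interaction of Nfil3 was -1.68 ± 0.22 (SE; limma adjusted p = 0.00134). Clock fell on the HFD from 6.72 ± 0.64 to 2.63 ± 0.34 RPKM (mean ± SD, n = 3), with an interaction of -1.16, and this was the 1 gene of the 4 whose interaction did not pass without the third Con and AOS livers (limma adjusted p = 0.0966).

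Of the 14 clock genes of the opposite phase, 11 rose with AOS on the HFD, against 4.17% of all genes tested, and 1 on the regular diet (Nr1d2), against 0.0952%. Dbp, an activator at D-boxes, was at 0.56, 0.27 and 0.59 RPKM in HFD and at 111.8, 88.9 and 97.8 RPKM in HFD+AOS. It was at 0.66, 0.58 and 0.68 RPKM in Con and at 3.41, 0.36 and 1.78 RPKM in AOS. The 3 HFD+AOS livers were thus above all others, while AOS livers lay both above and below Con. The mean of HFD+AOS was 210-fold that of HFD, a ratio that rests on low values in HFD, and the interaction of Dbp was 5.45 ± 0.72 (SE; limma adjusted p = 0.00137). Exons of Dbp overlap those of Sphk2 on the opposite strand, and the strandedness of the libraries is not given in the sources used here.

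Ciart, which encodes a repressor of BMAL1 and CLOCK, had the smallest p of the interaction. It was at 0.05, 0.20 and 0.20 RPKM in HFD and at 7.21, 9.82 and 10.7 RPKM in HFD+AOS, and at or below 0.45 RPKM in each Con and AOS liver. Its interaction was 3.26 ± 0.28 (SE; limma adjusted p = 5.11e-05), and its effect on the regular diet was -0.12 with a 95% interval of -0.54 to 0.31. Per3, a member of the Period family, was at 0.44, 0.38 and 0.38 RPKM in HFD and at 7.77, 6.6 and 8.47 RPKM in HFD+AOS. On the regular diet Per3 was at 0.18, 0.81 and 0.58 RPKM in Con and 1.06, 0.40 and 0.55 RPKM in AOS, so that the groups overlapped. The interaction of Per3 was 2.48 ± 0.33 (SE; limma adjusted p = 0.00144).

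Tef, a D-box activator like DBP, rose from 6.41 ± 1.97 to 42.3 ± 1.96 RPKM on the HFD (mean ± SD, n = 3), and was 6.71 ± 1.63 in Con and 9.94 ± 3.99 in AOS. The interaction of Tef was 2.12 (limma adjusted p = 0.0121), and 0.119 without the third Con and AOS livers. Wee1, a kinase that holds back mitosis and a known output of the clock, rose from 0.94 ± 0.09 to 5.22 ± 0.44 RPKM on the HFD. It was 0.92 ± 0.38 RPKM in Con and 0.67 ± 0.09 RPKM in AOS, and its interaction was 1.86 (limma adjusted p = 0.00136).

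**Figure D2:**
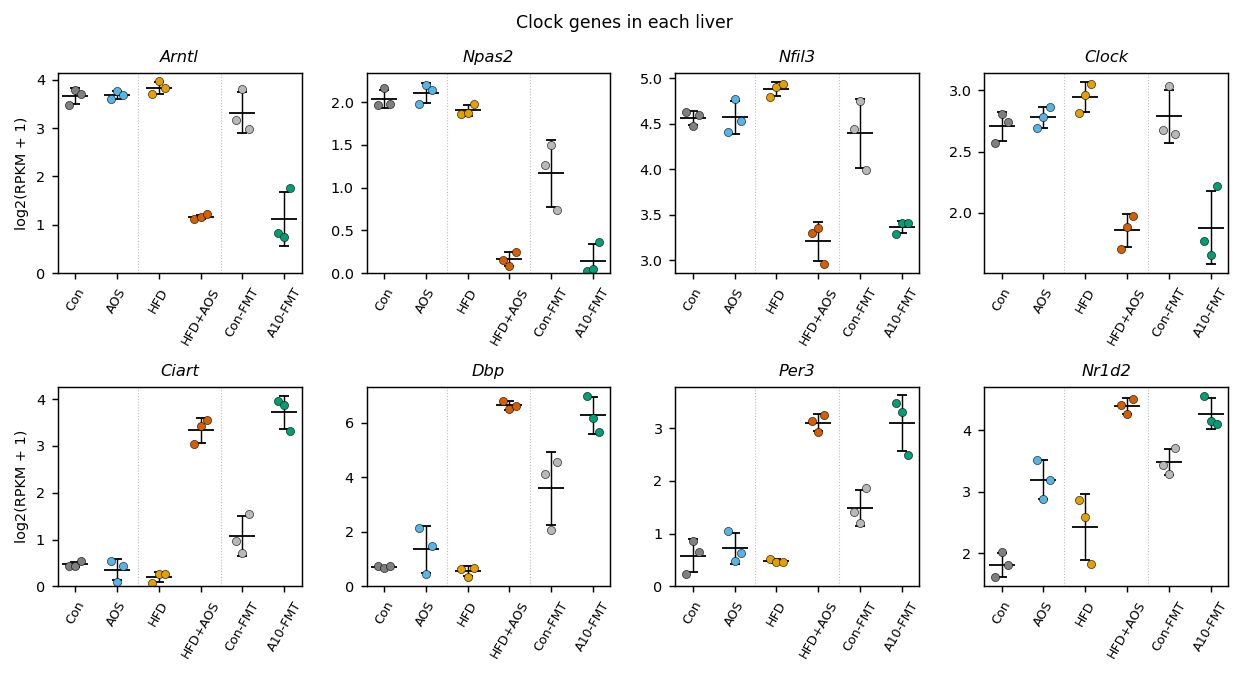
Each panel is a clock gene, the x axis gives the 6 groups and the y axis log2(RPKM + 1), with a point for each liver and a bar for the mean with its SD (n = 3). For Arntl, Npas2, Nfil3 and Clock the HFD+AOS and A10-FMT livers are low, and for Ciart, Dbp and Per3 they are high, while Con, AOS and HFD livers lie close together. Nr1d2 was also higher in AOS than in Con.

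Over the lists of clock genes, 8 genes of the BMAL1 phase and 14 of the opposite phase were tested. In the BMAL1 phase 4 passed with a negative interaction (Arntl, Npas2, Nfil3 and Clock), against 0.362% of all genes tested, and 0 with a positive one. By sign alone 2 of the 8 had a positive interaction, and the median was -1.14. In the opposite phase 6 passed with a positive interaction (Dbp, Ciart, Usp2, Per3, Tef and Wee1), against 0.143% of all genes tested, and 0 with a negative one. By sign alone all 14 had a positive interaction, and the median was 1.23, against -0.08 over all genes tested. The median AOS effect on the HFD was -1.38 and 1.78 in the lists, and on the regular diet 0.02 and 0.09. In the opposite phase 2 were higher and 2 lower with AOS on the regular diet at an unadjusted p under 0.05 (limma). The shares over all genes tested were 12.9% and 2.68%. The lists were written with earlier results of these data known, so that their counts are a description. Clock transcripts change over the day, and the part that the hour of collection may have in these differences was not tested.

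Of the Rev-erb genes, Nr1d2 rose with AOS on both diets, and Nr1d1 passed on the HFD. Nr1d2 was at 2.05, 3.03 and 2.49 RPKM in Con and at 10.4, 6.39 and 8.16 RPKM in AOS. It was at 6.32, 4.99 and 2.55 RPKM in HFD and at 20.4, 18.1 and 21.9 RPKM in HFD+AOS. Neither pair of groups overlapped. The effect was 1.39 on the regular diet (limma adjusted p = 0.0221) and 1.97 on the HFD (limma adjusted p = 9.41e-05), with an interaction of 0.58 and a 95% interval of -0.09 to 1.25 (limma adjusted p = 0.409). Nr1d1 was at 1.22, 3.68 and 2.72 RPKM in Con and at 30.7, 10.0 and 16.9 RPKM in AOS, a difference of 2.45 that did not pass on the regular diet (limma adjusted p = 0.105). In HFD it was at 21.7, 7.35 and 2.12 RPKM, and in HFD+AOS at 70.1, 56.8 and 54.4 RPKM, an effect of 2.86 (limma adjusted p = 0.0117). The interaction of Nr1d1 was 0.42 with a 95% interval of -1.43 to 2.26, which is wide enough to hold effects of either sign.

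Further clock genes did not pass the interaction. Cry1, a repressor of the loop, fell on the HFD by 1.71 on the log2 scale (limma adjusted p = 0.00283) and its effect was -0.59 on the regular diet, with an interaction of -1.12 (limma adjusted p = 0.228). Bhlhe41, another E-box repressor, rose on the HFD by 1.04 (limma adjusted p = 0.00383), with an interaction of 1.02 (limma adjusted p = 0.106). Hlf rose on the HFD by 0.70, with an interaction of 0.57 (limma adjusted p = 0.140). Bhlhe40 rose on the HFD by 1.01 (limma adjusted p = 0.0297), with an interaction of 0.96 (limma adjusted p = 0.254). Per2 had an effect of 0.79 on the HFD and -0.65 on the regular diet, with an interaction of 1.45 (limma adjusted p = 0.148). Interactions of 1.00 (Tspan4), 0.65 (Per1), 0.04 (E2f8) and -0.94 (Gadd45g) did not pass the threshold either.

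**Figure D3:**
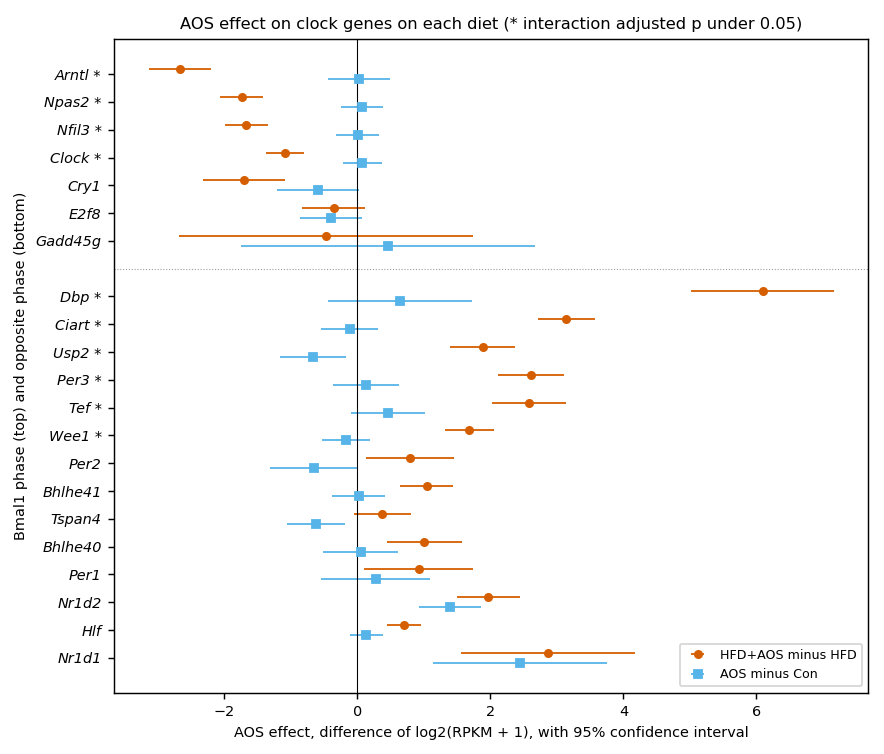
The AOS effect on each diet is plotted on the x axis for the clock genes listed on the y axis, as the difference of log2(RPKM + 1) with its 95% interval, circles for HFD+AOS minus HFD and squares for AOS minus Con. Squares lie near 0 for many genes of both phases, and those of Nr1d1 and Nr1d2 lie at 2.45 and 1.39. Squares of Usp2 (-0.67), Per2 (-0.65) and Tspan4 (-0.63) lie below 0, and those of Dbp (0.64) and Tef (0.46) above. The star marks the 10 genes that passed the interaction.

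The genes moved by AOS on the HFD only were mostly lowered in the main fit, with 27 of the 36 negative (median HFD effect -1.18) and 9 positive (median 1.68). Over all genes tested 4.58% were lower and 4.17% higher with AOS on the HFD. With library medians set equal, 34 of the genes past the interaction were negative and 31 positive, so that the lean of the interaction genes depended on the scaling. The clock genes Arntl, Npas2, Nfil3 and Clock are among the 27, and Ciart, Dbp, Per3, Tef and Wee1 among the 9. Over the 36 genes the median size of the effect was 1.20 on the HFD and 0.07 on the regular diet, on the log2 scale. These medians are a description, since the class was chosen by both effects. For 26 genes the 95% interval of the effect on the regular diet lay within -0.5 to 0.5. For the others it reached beyond these bounds, so that an effect of that size on the regular diet was not excluded. The class held 12 genes without the third Con and AOS livers.

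Chka, a gene of choline metabolism, was strongly lowered on the HFD only. It encodes choline kinase, which starts the synthesis of phosphatidylcholine from choline, and was at 38.9, 48.0 and 45.3 RPKM in HFD and at 8.91, 7.73 and 8.67 RPKM in HFD+AOS. It was at 44.1, 52.5 and 49.5 RPKM in Con and at 38.7, 44.7 and 41.1 RPKM in AOS. The HFD+AOS livers were 5.23-fold below HFD in the mean and did not overlap any other group of the 4. The interaction of Chka was -2.03 ± 0.20 (SE; limma adjusted p = 0.000109).

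Cdkn1a, which encodes the cell cycle inhibitor p21, was at 11.99, 11.81 and 16.47 RPKM in HFD and at 0.91, 0.51 and 0.73 RPKM in HFD+AOS. It was at 11.3, 11.9 and 12.1 RPKM in Con and at 13.1, 6.73 and 8.78 RPKM in AOS, so that AOS livers lay on both sides of Con. The interaction of Cdkn1a was -2.74 ± 0.41 (SE; limma adjusted p = 0.00349). Gadd45a, a growth arrest gene induced by DNA damage, was the 1 gene moved in the same direction on both diets. It rose from 1.49 ± 0.27 to 2.31 ± 0.35 RPKM on the regular diet at an unadjusted p of 0.0151 in limma, and from 2.19 ± 0.70 to 7.93 ± 0.27 RPKM on the HFD. Its interaction was 1.10 (limma adjusted p = 0.0261). Cdkn1a and Gadd45a were the 2 that passed of 18 p53, Gadd45 and cell cycle genes, against 0.504% of all genes tested.

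Gys2, Slc2a5, Slc5a6 and Fam76a rose on the HFD only. Gys2, glycogen synthase of the liver, was at 32.5, 37.7 and 33.4 RPKM in HFD and at 80.2, 79.9 and 81.8 RPKM in HFD+AOS, against 33.7 ± 7.37 RPKM in Con and 36.5 ± 3.21 RPKM in AOS. Its interaction was 1.07 (limma adjusted p = 0.0367). Gys2 was the 1 gene that passed of 23 glucose and glycogen genes, against 0.504% of all genes tested. Slc2a5, a fructose transporter, rose from 2.57 ± 0.21 to 6.13 ± 0.05 RPKM on the HFD and was 2.10 ± 0.18 in Con and 2.36 ± 0.24 in AOS, with an interaction of 0.88 (limma adjusted p = 0.0216). Slc5a6, the sodium-dependent transporter of biotin and pantothenate, rose from 1.40 ± 0.07 to 4.45 ± 0.10 RPKM on the HFD and was 1.55 ± 0.12 in Con and 1.62 ± 0.44 in AOS. Its interaction was 1.16 (limma adjusted p = 0.00419), and its exons overlap Atraid on the opposite strand. Fam76a rose as well, with an interaction of 0.62 (limma adjusted p = 0.0151).

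Nedd4l, Rnf144b, Dtx4, Lnx2 and Tab2 fell on the HFD only. The interaction was -1.08 for Nedd4l, -0.93 for Rnf144b, -0.92 for Dtx4 and -0.85 for Lnx2, which encode ubiquitin ligases. Tab2, an adaptor of the kinase TAK1 in inflammatory signalling, was at 27.4, 33.8 and 27.6 RPKM in HFD and at 15.4, 17.0 and 17.7 RPKM in HFD+AOS, with an interaction of -0.95 (limma adjusted p = 0.00238). Its Con and AOS livers were between 27.4 and 33.5 RPKM. Tab2 was among the 15 genes that passed under each of the 19 alternative settings, as were Nfil3, Dbp, Usp2, Per3, Npas2, Arntl, Ciart, Wee1, Chka, Cdkn1a, Ttc7, Arl4a and Zbtb16.

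Slc30a10, Atp2a2 and Clpx fell on the HFD only as well. Slc30a10, a manganese exporter, fell from 13.7 ± 1.39 to 4.73 ± 0.43 RPKM on the HFD and was 14.2 ± 0.47 in Con and 14.3 ± 1.56 in AOS, with an interaction of -1.36 (limma adjusted p = 0.0195). Atp2a2, the calcium pump of the endoplasmic reticulum, had an interaction of -1.14 (limma adjusted p = 0.0269). Clpx, the unfoldase of a mitochondrial protease, fell from 129.5 ± 20.4 to 48.9 ± 2.81 RPKM on the HFD and was 104.2 ± 5.50 in Con and 107.5 ± 1.59 in AOS, with an interaction of -1.42 (limma adjusted p = 0.0348). Asap2, which acts on Arf GTPases, and the actin regulators Mical2 and Ablim3 had interactions of -1.17, -0.71 and -0.85. Further genes lowered on the HFD only were Ypel2 (-1.43), Lrfn3 (-1.14), Slc45a3 (-1.50), Desi2 (-1.35), Wrnip1 (-0.80), Mreg (-0.99), Pnrc1 (-1.44), St3gal1 (-1.04) and Leo1 (-0.95).

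AOS moved 14 genes in opposite directions on the diets, 5 down on the regular diet and up on the HFD, and 9 the other way. These effects were smaller, with a median size of 0.62 on the HFD and 0.37 on the regular diet, and for none of the 14 did the effect on the regular diet pass with adjustment (unadjusted p from 0.000202 to 0.0372, limma adjusted p from 0.0710 to 0.292). The direction on each diet was opposite for all 14 under each of the 19 alternative settings. These settings reuse the livers that chose the genes, so that this is a description. Without the third Con and AOS livers, 11 of the 14 had an unadjusted p under 0.05 on the regular diet, and 3 genes were in this class among the 15 that passed. Among all genes tested, 42.1% had effects of opposite sign on the diets.

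Zbtb16, a zinc finger transcription factor, had the smallest p of these on the regular diet. It was at 1.28, 1.32 and 1.15 RPKM in Con and at 3.64, 2.04 and 2.55 RPKM in AOS. It was at 1.84, 1.69 and 2.01 RPKM in HFD and at 0.74, 0.55 and 0.67 RPKM in HFD+AOS. The groups did not overlap on either diet, with Zbtb16 higher with AOS on the regular diet (0.71) and lower with AOS on the HFD (-0.78). The interaction was -1.50 ± 0.21 (SE; limma adjusted p = 0.00209).

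Arl4a, a small GTPase of the Arf family, was at 5.37, 6.50 and 5.69 RPKM in Con and 8.03, 7.95 and 7.79 RPKM in AOS. It was at 9.88, 8.16 and 8.04 RPKM in HFD and 3.87, 4.64 and 4.11 RPKM in HFD+AOS, so that the groups were apart on both diets. The interaction of Arl4a was -1.28 ± 0.18 (SE; limma adjusted p = 0.00175). Btg1, which restrains cell proliferation, was at 8.94, 11.3 and 9.84 RPKM in Con and 16.8, 13.6 and 15.6 RPKM in AOS, and at 10.94, 13.99 and 14.86 RPKM in HFD and 8.54, 8.78 and 7.62 RPKM in HFD+AOS. Its groups did not overlap on either diet, and its interaction was -1.17 (limma adjusted p = 0.0314). Stat5b, the transducer of growth hormone signals to liver genes, was at 13.5 ± 0.47 in Con, 16.4 ± 0.73 in AOS, 15.2 ± 0.59 in HFD and 11.1 ± 0.91 RPKM in HFD+AOS. Its interaction was -0.69 (limma adjusted p = 0.0174). Stat5b was the 1 gene that passed of 28 genes of the growth hormone axis and of sex bias, against 0.504% of all genes.

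Of the genes lower with AOS on the regular diet and higher with it on the HFD, Usp2, a ubiquitin-specific protease under control of the clock, was at 1.31, 2.01 and 1.66 RPKM in Con and 0.82, 0.42 and 0.77 RPKM in AOS. It was at 0.69, 0.61 and 1.55 RPKM in HFD and 5.96, 5.81 and 6.32 RPKM in HFD+AOS, with groups apart on both diets. The effect was -0.67 and 1.88, and the interaction 2.55 ± 0.33 (SE; limma adjusted p = 0.00134). Ttc7, a scaffold of the kinase that makes phosphatidylinositol 4-phosphate at the plasma membrane, was at 9.59, 9.58 and 10.7 RPKM in Con and 8.94, 7.97 and 7.95 RPKM in AOS, and at 9.23, 7.50 and 7.97 RPKM in HFD and 14.6, 13.4 and 13.2 RPKM in HFD+AOS. Its interaction was 0.92 (limma adjusted p = 0.00134), and its groups did not overlap on either diet. S1pr5, a receptor of sphingosine 1-phosphate, was at 3.53, 4.91 and 4.41 RPKM in Con and 2.45, 2.12 and 2.22 RPKM in AOS, and at 2.09, 2.26 and 1.47 RPKM in HFD and 5.47, 3.34 and 6.53 RPKM in HFD+AOS. Con and HFD+AOS livers were thus the high ones, with an interaction of 1.72 (limma adjusted p = 0.0229). Gulo, the last enzyme of vitamin C synthesis, was 137.3 ± 1.71 in Con, 120.3 ± 7.34 in AOS, 159.5 ± 13.2 in HFD and 207.1 ± 8.94 RPKM in HFD+AOS, with an interaction of 0.57. Thnsl1, which resembles threonine synthase, had an interaction of 0.72.

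The remaining genes of the class had negative interactions, of -0.80 for A230050P20Rik, -0.71 for Rusc2, -0.45 for C2cd2 and -1.49 for Gm41476. The exons of A230050P20Rik and Rusc2 overlap Angptl6 and Fam166b on the opposite strand, and those of C2cd2 overlap Zbtb21 on the same strand. Gm6851, a processed pseudogene, was listed at 0 in each Con and HFD+AOS liver and at 1.46, 2.14 and 2.33 RPKM in AOS, so that no fold is given. In HFD it was at 1.27, 1.26 and 0 RPKM, so that HFD and HFD+AOS livers overlapped at 0. Its effect on the HFD did not pass with adjustment (limma adjusted p = 0.152), and reads of a parent gene could be counted for it.

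Angptl4 and Hamp2 were the genes that AOS moved on the regular diet only. Angptl4, a secreted inhibitor of lipoprotein lipase and a target of PPARα, was at 17.3, 25.0 and 21.3 RPKM in Con and at 45.1, 46.1 and 45.3 RPKM in AOS. It was at 39.4, 44.2 and 36.5 RPKM in HFD and at 33.1, 36.5 and 42.2 RPKM in HFD+AOS. Con livers were the low ones, while HFD livers were near AOS livers and overlapped HFD+AOS livers. The effect was 1.08 on the regular diet (limma adjusted p = 0.0103) and -0.10 on the HFD, with a 95% interval of -0.40 to 0.19. The interaction was -1.18 ± 0.20 (SE; limma adjusted p = 0.00906), and without the third Con and AOS livers -1.20 (limma adjusted p = 0.0953). Angptl4 was the 1 gene that passed of 44 PPARα targets and fatty acid oxidation genes, against 0.504% of all genes tested. The median interaction of that list was -0.09.

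Hamp2, a paralogue of the iron hormone hepcidin (Hamp), was at 6.50, 2.96 and 4.32 RPKM in Con and at 67.9, 31.8 and 44.7 RPKM in AOS. It was at 42.6, 90.5 and 33.7 RPKM in HFD and at 25.6, 37.2 and 65.6 RPKM in HFD+AOS. Con was again the low group, and the other 3 groups overlapped. The interaction was -3.46 ± 0.73 (SE; limma adjusted p = 0.0468), 0.0505 with the medians of the libraries set equal and 0.266 without the third Con and AOS livers. Hamp itself had an interaction of 0.61 (limma adjusted p = 0.663). Reads of Hamp and Hamp2 could have been shared by the counting, so that the values of Hamp2 are uncertain.

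**Figure D4:**
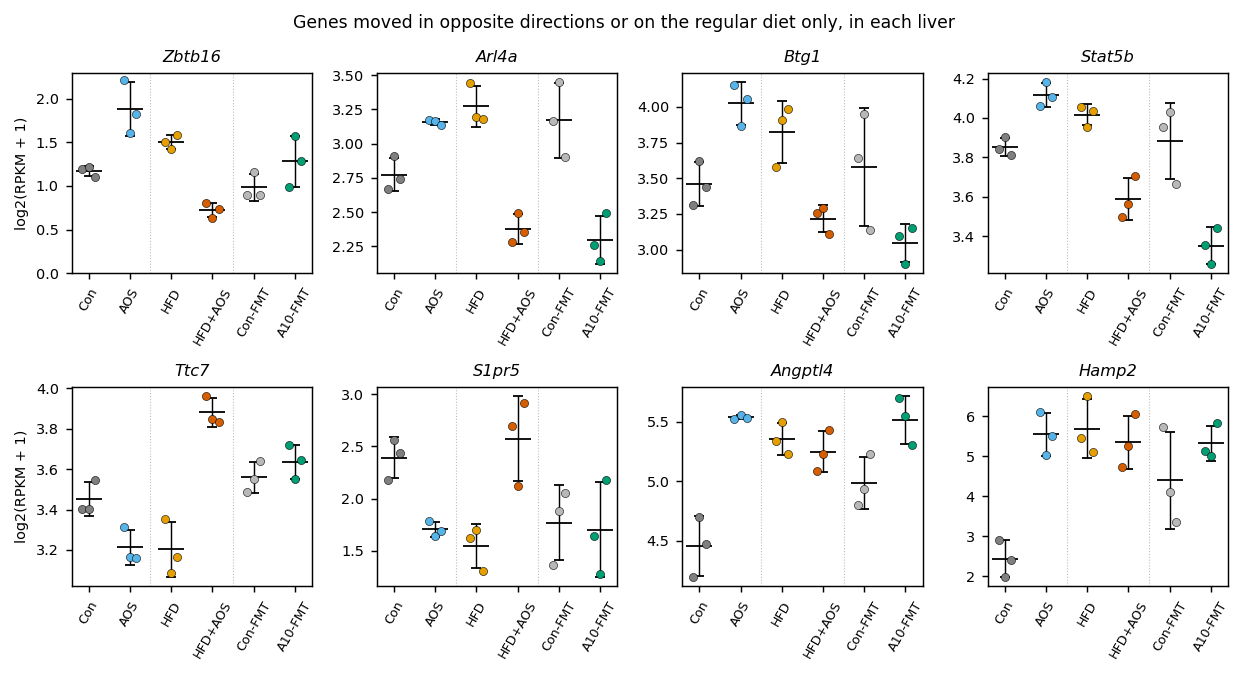
Each panel is a gene, the x axis gives the 6 groups and the y axis log2(RPKM + 1), with a point for each liver and a bar for the mean with its SD (n = 3). Zbtb16, Arl4a, Btg1 and Stat5b are higher in AOS than in Con and lower in HFD+AOS than in HFD, Ttc7 and S1pr5 are the reverse, and for Angptl4 and Hamp2 the Con livers lie below the rest of the 4 groups.

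Genes that passed with adjustment on both diets moved in the same direction on both. Of the 14 genes that passed on the regular diet 8 also passed on the HFD, against 8.75% of all genes tested. All 8 moved in the same direction, while 42.1% of all genes tested had effects of opposite sign. None of the 8 passed the interaction, against 0.504% of all genes tested. Without the third Con and AOS livers 0 genes passed on the regular diet, so that this set rests on those livers. Among the 8, Abcg5 and Abcg8, the subunits of the sterol exporter of the liver, rose by 0.81 and 0.86 on the regular diet and by 0.88 and 1.04 on the HFD. Lpin2, a phosphatidate phosphatase of triglyceride synthesis, rose by 0.73 and 0.60. Tubb6, a tubulin, fell by 0.87 and 0.63. These genes and Nr1d2 were named after their values were seen.

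Apart from Hamp2, large differences in acute phase genes did not pass the interaction. Saa2, a serum amyloid A protein, was at 7018, 300.0 and 3826 RPKM in Con and at 110.2, 23.7 and 54.0 RPKM in AOS, and between 22.2 and 78.0 RPKM in the livers of HFD and HFD+AOS. The first and the third Con livers held the high values, and the third may not be an animal of its own, as said above. The effect on Saa2 on the regular diet was -5.24 (limma adjusted p = 0.0221) and its interaction 5.02 (limma adjusted p = 0.0696). Without the third Con and AOS livers, the limma adjusted p was 0.460 for the effect on the regular diet and 0.366 for the interaction. Saa1 had an interaction of 3.66 and Lcn2 one of 3.73, with limma adjusted p of 0.17 and 0.193, and near-identical Saa genes could share reads. Of 31 acute phase genes tested, 10 had a positive and 2 a negative interaction at an unadjusted p under 0.05. The shares over all genes tested were 3.66% and 11%. With adjustment 1 passed (Hamp2), against 0.504% of all genes tested. The summed RPKM of the neutrophil markers was 3.56 to 12.01 in Con, 3.22 to 4.73 in AOS, 2.64 to 3.93 in HFD and 2.16 to 3.55 in HFD+AOS, and its part in these values was not tested.

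The A10-FMT and Con-FMT livers gave a readout that shared no library with the interaction, although they entered the estimate of the spread. Between A10-FMT and Con-FMT 177 genes passed, 1.68% of those tested, 48 higher (0.457%) and 129 lower (1.23%). Of the 53 genes, 37 passed (69.8%), all 37 in the direction of their interaction. By sign alone, 47 of the 53 went in the direction of the interaction (88.7%), against 67.6% of all genes tested. The median difference was 0.78 over the 15 genes of positive interaction and -0.73 over the 38 of negative interaction, against -0.03 over all genes.

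By class, the counts differed, without a test of that difference. Of the 36 genes moved by AOS on the HFD only, 35 had the sign of the interaction and 33 passed. Of the 14 genes moved in opposite directions, 11 had the sign and 3 passed (Usp2, Arl4a and Stat5b). Arntl was at 8.02, 12.97 and 6.94 RPKM in Con-FMT and at 0.79, 0.69 and 2.41 RPKM in A10-FMT, a difference of -2.20 (limma adjusted p = 9.37e-05). Dbp was at 16.5, 3.24 and 22.6 RPKM in Con-FMT and at 126.9, 70.8 and 49.2 RPKM in A10-FMT, a difference of 2.68 (limma adjusted p = 0.0132). Zbtb16, Angptl4 and Hamp2 had positive differences of 0.30, 0.53 and 0.93, against negative interactions, as did Ablim3 with 0.31, and none of these passed. Nr1d2 had a difference of 0.79 (limma adjusted p = 0.0887).

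**Figure D5:**
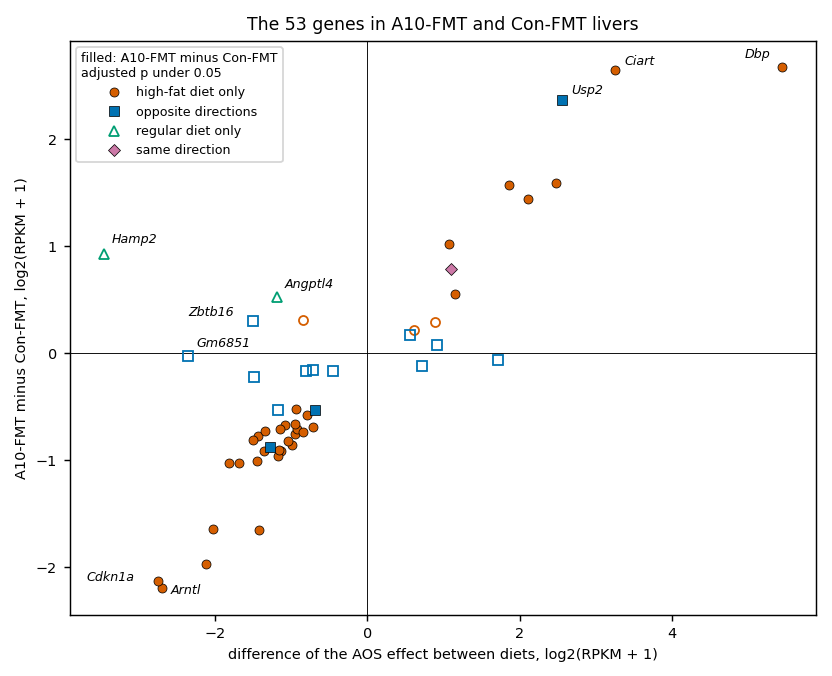
Each point is 1 of the 53 genes, with the interaction on the x axis and A10-FMT minus Con-FMT on the y axis, both in log2(RPKM + 1). Filled points passed A10-FMT against Con-FMT, 37 of the 53, all in the lower left or the upper right, while Hamp2, Angptl4, Zbtb16 and Ablim3 lie in the upper left.

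The genes whose values were most like those of Dbp and Arntl were looked for among all genes tested. Over the 12 livers, the values of Dbp were close to those of Slc5a6 (Pearson r = 0.99) and Per3 (0.99), and opposed to those of Arntl (-0.99) and Chka (-0.99). The values of Arntl were close to those of Net1, which did not pass the interaction, and Chka. These correlations are a description over 12 points that include the group differences which chose the genes, and they do not show that values followed each other within a group.

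Outside the clock, the lists of liver pathways held few genes of the interaction, which were 0.504% of all genes tested. Among 26 genes of cholesterol synthesis and uptake 0 passed, a count that a list of this size can reach at that share. In the same list 0 had an unadjusted p under 0.05, against 14.7% of all genes tested. Of the 29 genes of endoplasmic reticulum stress and secretory chaperones 12 were lower with AOS on the HFD, against 4.58% of all genes, but 0 passed the interaction and 6 had a negative interaction at an unadjusted p under 0.05, against 11% of all genes. Of the 21 heat shock and cold-induced genes 10 were lower and 2 higher on the HFD, against 4.58% and 4.17% of all genes. In that list 0 passed the interaction, against 0.504% of all genes, and 5 had a negative one at an unadjusted p under 0.05, with a median interaction of -0.50. Hspa5, the chaperone BiP, was 327, 402 and 318 RPKM in HFD and 168, 173 and 174 RPKM in HFD+AOS, an effect of -1.01 (limma adjusted p = 0.0242). On the regular diet it was 285, 284 and 304 RPKM in Con and 293, 228 and 249 RPKM in AOS, and its interaction was -0.82 (limma adjusted p = 0.308). G6pc, the last enzyme of glucose output, was near the threshold, with an interaction of -2.30 (limma adjusted p = 0.0521), an effect of -1.58 on the HFD and of 0.71 on the regular diet.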

How the data were processed

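RNA-seq of 18 livers was used, 12 of them in the interaction. Reads were mapped by the authors with SOAPaligner and the deposited values are RPKM, a unit named in the paper and not in the table's header. The submitters' processing notes also name Bowtie 0.12.2 and mm10, with no role. The annotation and strandedness are not given in the sources used here. Reads of near-identical genes could count for more than 1 gene. RPKM holds no read numbers, so absolute depth is unknown, and DEGseq, the test of the paper, was not run. The step worth 1 read was alike between libraries (median ratios 0.978 to 1.00 over 104 genes). All value columns were matched to samples.

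Groups followed the labels. Values were log2(RPKM + 1), not rescaled, for the 10507 of 17109 lines above 0 that reached an RPKM of 1 in 3 or more of 18 livers. limma 3.58.1 in R 4.3.3 (lmFit with 6 group means, eBayes with trend, two-sided, 12 residual degrees of freedom per gene) gave each comparison, with Benjamini-Hochberg adjustment of p over all genes tested. The added 1 shrinks the differences of genes with low RPKM. Nothing in the labels says how livers were sampled, so p values measure the spread between these samples. The fit was tested on simulated data.

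The genes and the 41 gene lists were chosen with earlier results of these data known. The rule named up to 15 genes past the interaction in each direction, up to 4 members of each list by the smallest p where under 0.05, and fixed clock and metabolic genes. The other genes past the threshold, the other clock genes, Saa1, Lcn2, Hspa5, Hamp, Abcg5, Abcg8, Lpin2 and Tubb6 were named after their values were seen. Some genes that these rules name are not reported here but are in the counts. Alternatives were library medians set equal, a pseudocount of 0.1, no filter on low values, a fit of the 4 groups alone, a block for the replicate number, no trend, stricter thresholds, and libraries left out. Gene overlaps are from GENCODE M21 (GRCm38), in which 52 of the 53 genes were found by symbol. Python 3.11.15, numpy 2.4.6, pandas 2.3.3 and matplotlib 3.10.9 were used for tables and figures.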

Additional observations from a re-analysis of the deposited data

Results flagged for a closer look

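The effect of AOS differed between the diets in 53 genes by the test of the difference itself (limma, adjusted p under 0.05), and those reported here are listed with their interaction on the log2(RPKM + 1) scale. It was positive for Dbp (5.45), Ciart (3.26), Usp2 (2.55), Per3 (2.48), Tef (2.12), Wee1 (1.86), S1pr5 (1.72), Slc5a6 (1.16), Gadd45a (1.10), Gys2 (1.07), Ttc7 (0.92), Slc2a5 (0.88), Thnsl1 (0.72), Fam76a (0.62) and Gulo (0.57). It was negative for Hamp2 (-3.46), Cdkn1a (-2.74), Arntl (-2.70), Gm6851 (-2.35), Chka (-2.03), Npas2 (-1.81), Nfil3 (-1.68), Slc45a3 (-1.50), Zbtb16 (-1.50), Gm41476 (-1.49), Pnrc1 (-1.44), Ypel2 (-1.43), Clpx (-1.42), Slc30a10 (-1.36), Desi2 (-1.35), Arl4a (-1.28), Angptl4 (-1.18), Asap2 (-1.17), Btg1 (-1.17), Clock (-1.16), Atp2a2 (-1.14), Lrfn3 (-1.14), Nedd4l (-1.08), St3gal1 (-1.04), Mreg (-0.99), Tab2 (-0.95), Leo1 (-0.95), Rnf144b (-0.93), Dtx4 (-0.92), Lnx2 (-0.85), Ablim3 (-0.85), A230050P20Rik (-0.80), Wrnip1 (-0.80), Mical2 (-0.71), Rusc2 (-0.71), Stat5b (-0.69) and C2cd2 (-0.45). The values behind these differences were given above for the genes that AOS moved on 1 diet only or in opposite directions. No group had the 4 samples that a check for a single outlying liver needs.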

How the results depend on the processing

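Each of the 53 genes kept the sign of its interaction in all 19 alternative settings, and 15 of them passed in each. The settings reuse the livers that chose the 53, so that the kept sign is a description. In the single-gene values of the 53, 731 kept the call and 276 lost it. The number of genes past the interaction was 65 with the medians of the libraries set equal (45 shared), 137 with only the 4 groups in the fit, 15 without the third Con and AOS livers, and 4 at an adjusted p of at most 0.001 with a log2 difference of at least 1. On the regular diet it was 0 without the third livers (920 at an unadjusted p under 0.05) and 0 at the stricter threshold, against 14. On the HFD it was 496 and 35, against 919. The class moved on the HFD only held 88 genes with 4 groups in the fit and 12 without the third livers. The class moved in opposite directions held 39 and 3, with 9 without a filter on low values and 0 by the adjusted p on each diet. The class moved on the regular diet only held 1 with medians set equal, without a filter, with the replicate block or without trend, and 0 without the third livers. The class moved in the same direction held 2 with medians set equal, 7 with 4 groups, and 0 with a pseudocount of 0.1, without a filter, without the third livers or by the adjusted p. The cause of these changes was not tested.

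With 1 library left out at a time, the interaction gave 29 to 186 genes, the regular diet 0 to 132 and the HFD 320 to 1282. The count on the regular diet was 0 without AOS replicate 3, Con replicate 1 or Con replicate 3 (1202, 955 and 1247 at an unadjusted p under 0.05 in limma) and 132 without Con replicate 2. The classes held 22 to 114 (HFD only), 5 to 62 (opposite directions), 1 to 14 (regular diet only) and 0 to 4 genes (same direction). The interaction changed sign for 3 genes that were not past the threshold, with ranges of -0.30 (without HFD replicate 3) to 1.13 for Nr1d1, -0.00393 (without AOS replicate 2) to 0.175 for Abcg5 and -0.171 to 0.209 for E2f8 (below 0 without AOS replicate 1, HFD replicate 3 or HFD+AOS replicate 3).

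No pairing of livers by replicate number was seen, since same-numbered livers correlated in their deviations by -0.177 to 0.225. In 0 comparisons was every correlation over 0.1. With 3 livers a group, such correlations cannot settle whether livers were paired. With the replicate number as a block 68 genes passed the interaction, 48 of them shared. Read depth is not known from RPKM, which limits what can be said of genes near 0.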
